A study of Mus musculus with 7 samples.

Results

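The genes described here are the ligands and receptors of the vascular endothelial growth factor (VEGF) and angiopoietin systems, read in whole mouse shoulder joints after tendon repair. They were chosen by symbol as a family and number 10 of the 56854 gene identifiers listed in every library: Vegfa, Vegfb, Vegfc, Pgf, Kdr, Flt1, Flt4, Angpt1, Angpt2 and Tek. Counts above 0 were listed for 9 of the 10, and these 9 passed the filter on low counts and were tested. Angpt2 was listed at 0 in all 7 libraries and has no level here.

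The libraries came from 7 mice, 3 wild type and 4 Tnc-/-, in which the gene of tenascin C, a glycoprotein of the extracellular matrix, is targeted. The tenascin C protein was not measured here. All 7 mice had the supraspinatus tendon of the left shoulder repaired, and the whole joint was taken 2 weeks later for poly(A) RNA sequencing, with 1 library per mouse. The comparison is therefore between genotypes after repair, with no unoperated joint in either group. Strain, age, sex and the kind of Tnc allele were not given in the sources used here.

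VEGF-A, VEGF-B and placental growth factor (Pgf) are secreted ligands that act on endothelial cells, the lining of blood vessels. Kdr is the main signalling receptor for VEGF-A, and Flt1 binds VEGF-A, VEGF-B and Pgf and also exists as a soluble form that holds ligand back from Kdr. VEGF-C acts through Flt4, which is best known from lymphatic vessels and is also made by sprouting blood vessels. Angpt1, made largely by cells around the vessel, activates the endothelial receptor Tek and steadies the vessel, while Angpt2, made by endothelial cells, can oppose it. Both systems are active when a healing tendon, which is poor in vessels, is invaded by them.

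Gene counts per library were 13.46 to 18.5 M (mega) in the wild type and 19.25 to 28.19 M in Tnc-/-. For the targeted gene Tnc the wild type gave 8137, 4394 and 5386 counts, and Tnc-/- gave 698 to 1051. Wild-type libraries 2 and 3 stood apart: 2010 smell and pheromone receptor genes, which a joint is not known to use, summed to 1399 and 982 CPM (counts scaled to a library of fixed size) there, to 89.1 in wild-type library 1 and to 36.5 to 43.9 in Tnc-/-. The files of each genotype also list different identifier sets, so genotype and counting run cannot be told apart. Markers of tendon, cartilage, bone and skeletal muscle were found in every library, with 2 defining genes, Scx of tendon and Col10a1 of hypertrophic cartilage, listed at 0. Both lie inside another gene's span, where 87.4% of protein-coding genes were at 0 in all 7 libraries, so their 0 is not read as absence. The same holds for the markers Ccl21a, Ecscr and Alas2 named below. In whole joints, fewer cells of a type and less RNA per cell cannot be told apart. The test asks whether genotypes differ by more than the spread between mice.

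Of the 9 tested members 4 passed the test, Vegfa and Flt4 higher and Tek and Angpt1 lower in Tnc-/- (edgeR quasi-likelihood test, Benjamini-Hochberg adjusted over 17791 genes). Across all tested genes 29.0% passed, 10.3% higher and 18.7% lower, so a passing gene was common in this comparison. The balance of directions depended on the setting: lower genes made up 64.5% of calls here, 82.7% with libraries scaled by their totals and 27.3% with voom. The libraries of the genotypes did not overlap for 3 members, Vegfa, Flt4 and Tek, against 35.1% of all tested genes. The median log2 fold change, Tnc-/- relative to wild type, was 0.026 over the 9 members and -9.0e-04 over all tested genes.

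**Figure D1:**
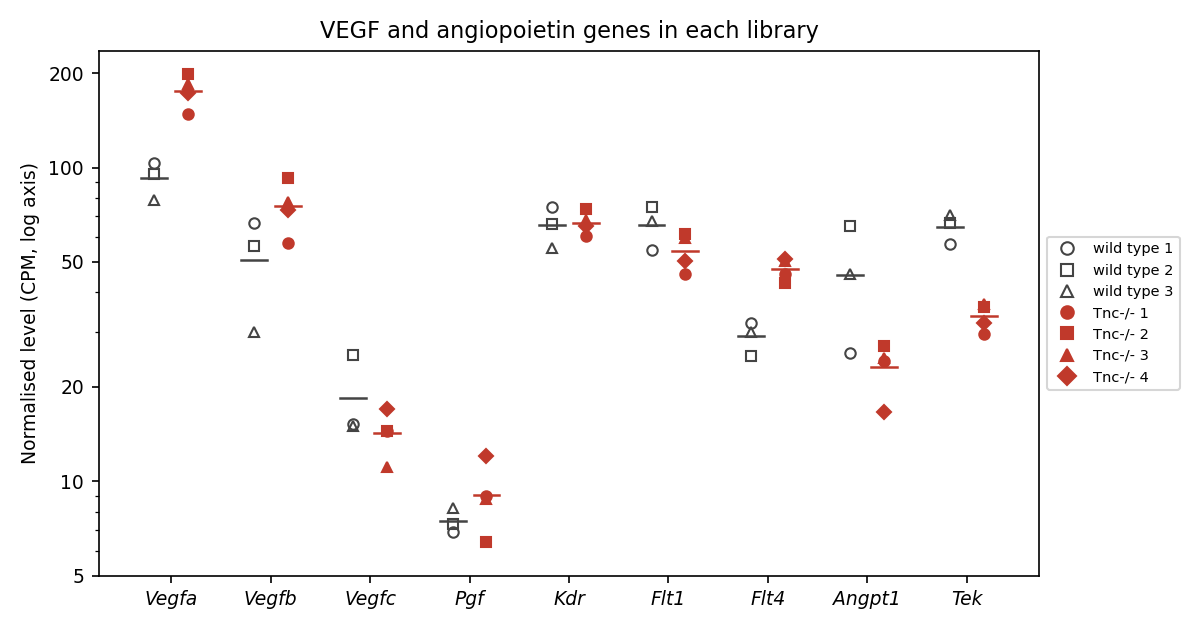
Level of each tested member in every library, in CPM on a log axis, by genotype, with the group mean drawn as a bar. Vegfa and Flt4 in Tnc-/- lie above every wild-type library, Tek lies below every one, and the other members overlap.

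The results turn on Vegfa, on its receptor Kdr and on Tek, so the stretch just before the start of each is shown, to set side by side what lies upstream of a ligand that was higher, a receptor that did not pass and a receptor that was lower. The sequences are from RefSeq, build GRCm38.p6, read 5′ to 3′ on the gene's strand: Vegfa chr17:46032378-46032627 (minus), Kdr chr5:75978459-75978705 (minus) and Tek chr4:94739039-94739288 (plus). Capitals mark matches on either strand, so that some read as the reverse complement. The GC box was searched as GGGCGG. A core of hypoxia-response elements was searched as ACGTG. Its variant form was GCGTG. The core bound by ETS factors was AGGAA.
Vegfa: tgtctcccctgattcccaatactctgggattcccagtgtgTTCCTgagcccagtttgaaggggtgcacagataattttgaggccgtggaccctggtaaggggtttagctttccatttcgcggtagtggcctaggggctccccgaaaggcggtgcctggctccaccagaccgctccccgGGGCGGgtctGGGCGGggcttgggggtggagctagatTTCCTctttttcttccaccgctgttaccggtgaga
Kdr: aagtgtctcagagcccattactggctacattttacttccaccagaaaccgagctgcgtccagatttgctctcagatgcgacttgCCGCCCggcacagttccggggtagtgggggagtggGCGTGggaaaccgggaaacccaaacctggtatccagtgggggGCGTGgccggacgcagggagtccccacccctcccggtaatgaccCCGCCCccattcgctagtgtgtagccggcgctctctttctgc
Tek: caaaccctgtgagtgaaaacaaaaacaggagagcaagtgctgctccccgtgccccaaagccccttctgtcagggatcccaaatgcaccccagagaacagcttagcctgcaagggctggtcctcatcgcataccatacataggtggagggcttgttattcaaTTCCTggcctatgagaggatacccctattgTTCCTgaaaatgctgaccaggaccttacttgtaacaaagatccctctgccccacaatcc
The Vegfa stretch held 2 GC boxes, 72 and 62 bases before the start, and 2 AGGAA. The Kdr stretch held 2 GC boxes and 2 GCGTG, and the Tek stretch held 2 AGGAA and none of the other letters. Among 27026 mouse promoters of 250 bases, GGGCGG occurred in 33.0%, GCGTG in 28.3%, ACGTG in 16.5% and AGGAA in 60.2%. These are matches of letters only, and the libraries hold no measure of binding. Only the stretches shown were searched, so a match further from the start would not be seen.

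Vegfa, the main ligand for new vessels, was higher in Tnc-/-. Its level was 103, 95.7 and 78.9 CPM in the wild-type libraries and 149, 199, 185 and 172 CPM in the Tnc-/- libraries. Every Tnc-/- joint lay above every wild-type joint. The means were 92.6 ± 12.5 CPM (SD, n = 3) and 176 ± 21.2 CPM (SD, n = 4), a fitted rise of 1.90-fold (log2 fold change 0.93, SE 0.15, edgeR adjusted p = 0.00711). Against wild-type library 1 alone, the only wild-type library with a low smell receptor level, the log2 fold change was 0.76 with an edgeR adjusted p of 0.051. In every fit against that library alone the spread comes from the 4 Tnc-/- mice, and the lone wild-type mouse is assumed to vary like them. Over 18 alternatives the adjusted p ran from 2.5e-07 to 0.159. Vegfa has several splice forms with different reach in tissue, and these gene counts do not separate them.

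Vegfb, a ligand of Flt1 rich in muscle and heart, did not pass. Its CPM was 66.6, 56.1 and 29.9 in the wild type and 57.5, 92.4, 77.7 and 73.2 in Tnc-/-. The groups overlapped, wild-type library 3 was the lowest of the 7, and the log2 fold change was 0.56 (SE 0.27, edgeR adjusted p = 0.145). Without wild-type library 1 it was 0.90 with an edgeR adjusted p of 0.00462, the only one of 18 alternatives in which Vegfb passed.

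Vegfc, the lymphatic growth factor, was at 15.2, 25.2 and 15.0 CPM in the wild type and 14.5, 14.4, 11.1 and 16.9 CPM in Tnc-/-. Wild-type library 2 alone stood high, and Vegfc did not pass (log2 fold change -0.38, SE 0.25, edgeR adjusted p = 0.292). Pgf, which binds Flt1 and not Kdr, was at 6.87, 7.31 and 8.20 CPM in the wild type and 8.99, 6.41, 8.79 and 12.0 CPM in Tnc-/-. Its groups overlapped, and it did not pass (log2 fold change 0.28, SE 0.31, edgeR adjusted p = 0.534). Vegfa was thus the 1 ligand of the 4 VEGF ligands here that passed.

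Kdr, the receptor through which VEGF-A mainly signals, had nearly equal group means. Its CPM was 74.8, 66.3 and 55.5 in the wild type and 60.5, 73.6, 68.0 and 65.0 in Tnc-/-. The means were 65.6 ± 9.67 CPM (SD, n = 3) and 66.8 ± 5.49 CPM (SD, n = 4), and all 4 Tnc-/- joints fell within the wild-type range. The log2 fold change was 0.026 (SE 0.14, edgeR adjusted p = 0.904), and its sign turned in 10 of 18 alternatives, so no direction is given.

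Flt1 was at 54.4, 74.96 and 67.4 CPM in the wild type and 45.8, 61.4, 59.5 and 50.2 CPM in Tnc-/-. The groups overlapped and Flt1 did not pass (log2 fold change -0.28, SE 0.16, edgeR adjusted p = 0.222). The soluble and membrane forms of Flt1 are counted together here.

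Flt4, the receptor for VEGF-C, was higher in Tnc-/-. Its CPM was 32.0, 25.1 and 29.9 in the wild type and 45.7, 42.8, 50.4 and 51.0 in Tnc-/-. The groups did not overlap, with means of 29.0 ± 3.56 CPM (SD, n = 3) and 47.5 ± 3.92 CPM (SD, n = 4). The fitted rise was 1.64-fold (log2 fold change 0.71, SE 0.14, edgeR adjusted p = 0.0099). Against wild-type library 1 alone the log2 fold change was 0.56 with an edgeR adjusted p of 0.0822, and over 18 alternatives the adjusted p ran from 6.5e-05 to 0.327. Of 5 tested lymphatic markers, beside which Flt4 is usually read, 1 passed, Reln, which was lower. The 4 that did not pass had log2 fold changes of -0.35 (Pdpn), -0.32 (Mmrn1), -0.20 (Prox1) and 0.029 (Lyve1). For Reln and Pdpn the genotypes did not overlap, both lower in Tnc-/-, beside 17.4% of all tested genes. Ccl21a was listed at 0. The summed level of the lymphatic markers was 175 to 243 CPM in the wild type and 142 to 151 CPM in Tnc-/-. Without Reln the sums overlapped only narrowly, at 136.6 to 173.5 CPM and 124.8 to 137.5 CPM. Reln spans 460 kb, was highest in wild-type libraries 2 and 3, and did not pass in edgeR against wild-type library 1 alone (-0.61, adjusted p = 0.11) or with the smell receptor covariate (-0.027, adjusted p = 0.966), but passed with the smell receptor read density subtracted (-1.51, adjusted p = 0.0145).

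Tek, the angiopoietin receptor, was lower in Tnc-/-. Its CPM was 56.9, 66.4 and 70.5 in the wild type and 29.4, 35.9, 36.8 and 32.1 in Tnc-/-. No Tnc-/- joint reached the lowest wild-type joint, and the means were 64.6 ± 6.96 CPM (SD, n = 3) and 33.5 ± 3.46 CPM (SD, n = 4). The fitted level was 1.93-fold lower (log2 fold change -0.95, SE 0.14, edgeR adjusted p = 0.0067). Against wild-type library 1 alone, with no replicate in that arm, the log2 fold change was -0.77 (edgeR adjusted p = 0.0314). Over 18 alternatives Tek passed in 17, with adjusted p from 4.1e-09 to 0.115.

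Angpt1, the ligand that activates Tek, was lower in Tnc-/- in the fit to all 7 libraries, but the difference leaned on wild-type libraries 2 and 3. Leaving out any 1 Tnc-/- library also ended the call, at log2 fold changes of -1.07 to -0.85 (edgeR adjusted p from 0.069 to 0.100). The CPM of Angpt1 was 25.7, 65.2 and 45.9 in the wild type and 24.2, 26.9, 24.7 and 16.6 in Tnc-/-. Wild-type library 1 lay within the Tnc-/- range, so the groups overlapped. The log2 fold change was -0.98 (SE 0.30, edgeR adjusted p = 0.0384) with all libraries and -0.16 (edgeR adjusted p = 0.720) against wild-type library 1 alone. Angpt1 passed in 6 of 18 alternatives, with adjusted p from 0.000205 to 1.

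Angpt2, the other Tek ligand, had 0 counts in every library. In GENCODE M21 it lies wholly inside the span of Mcph1 on the opposite strand and shares no exon base with it. Of 652 protein-coding genes inside another gene's span with no shared exon base, on either strand, 554 (85.0%) were at 0 in all 7 libraries, against 17.3% of 11645 genes that overlap no other. A 0 for Angpt2 is therefore not read as absence from the joint and sets no upper limit on its level, and no ratio of Angpt2 to Angpt1 could be computed.

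**Figure D2:**
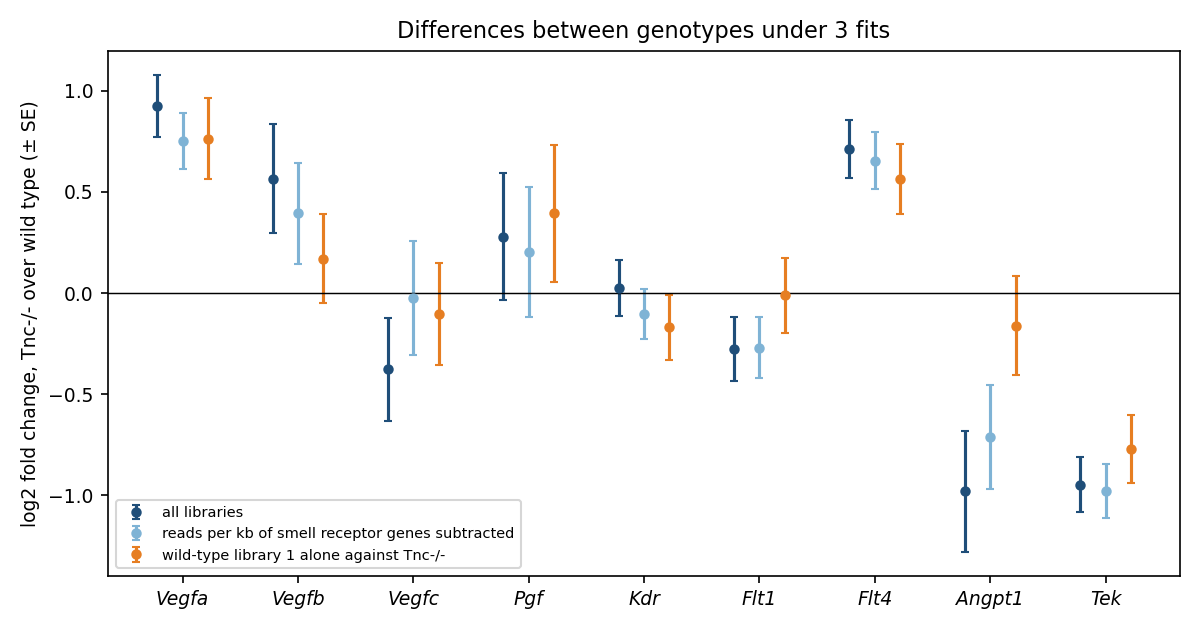
Log2 fold change (Tnc-/- relative to wild type) of each tested member from the fit to all libraries, with the smell receptor read density subtracted, and against wild-type library 1 alone, with bars of 1 SE. Tek lies below 0 and Vegfa and Flt4 above 0 in the 3 fits shown, while Angpt1 moves from -0.98 to -0.16 against wild-type library 1 alone.

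Members differ in span, from 5.18 kb for Vegfb to 252 kb for Angpt1, and so in the counts that a given read density puts on them. At the read density of the smell receptor genes (1.42 and 1.09 counts per kb in wild-type libraries 2 and 3), Angpt1 would take 36.4% and 36.3% of its counts there. For Vegfc the shares were 40.9% and 48.2%, for Flt1 20.6% and 16.1%, and for Tek 19.2% and 12.7%. Flt4 stood at 16.3% and 9.60%, and Vegfa, which spans 15.4 kb, at 1.51% and 1.29%. With this density subtracted, Vegfa (0.75, edgeR adjusted p = 0.0138), Flt4 (0.65, 0.0171) and Tek (-0.98, 0.00708) passed, and Angpt1 did not (-0.71, 0.0838). With the smell receptor level as a covariate no member passed in edgeR, 2 had an unadjusted p under 0.05, and Tek stood at -0.69 (adjusted p = 0.115). The smell receptor level was higher in every wild-type library (89.1 to 1399 CPM) than in every Tnc-/- library (36.5 to 43.9 CPM). The covariate fit therefore cannot fully separate it from genotype, and 399 of 17791 genes passed there. Whether this signal has a part in the differences beyond these values was not tested.

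**Figure D3:**
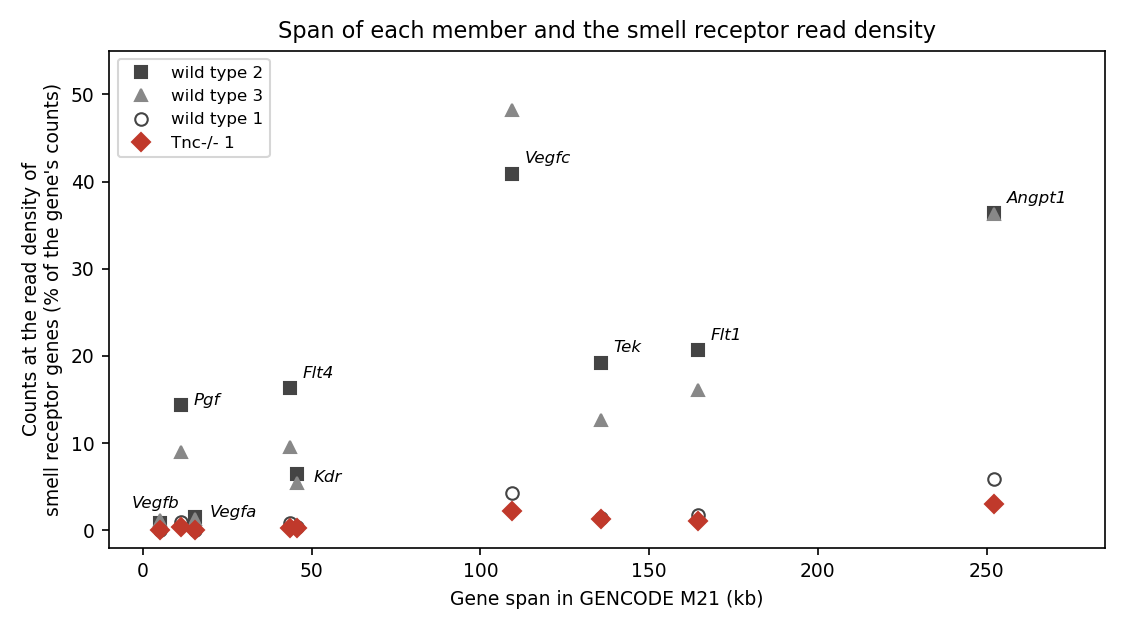
Share of each member's counts that the smell receptor read density would give over its span (percent), against the span in kb, for the 3 wild-type libraries and Tnc-/- library 1. Wild-type libraries 2 and 3 carry the high shares, up to 48.2% for Vegfc, and wild-type library 1 lies near Tnc-/-.

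Within a library, the ratio of ligand to receptor needs no scaling between libraries. The log2 ratio of Vegfa to Kdr counts was 0.47, 0.53 and 0.51 in the wild type and 1.30, 1.43, 1.44 and 1.41 in Tnc-/-. Each library's ratio thus sat close to its group's, with a gap of 0.89 between the means. The exact two-sided permutation p was 0.0571, the smallest that 3 against 4 mice allow, or 0.17 adjusted over 3 ratios. Flt1 to Kdr differed by -0.31 (exact permutation p = 0.286, adjusted 0.40) and Kdr to the summed endothelial markers by -0.094 (exact permutation p = 0.40, adjusted 0.40).

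The ratios of Tek and Flt4 to Kdr were added after their values were seen and carry no test. Tek to Kdr was -0.39, 0.0014 and 0.34 on the log2 scale in the wild type and -1.04, -1.03, -0.89 and -1.02 in Tnc-/-. Flt4 to Kdr was -1.23, -1.40 and -0.89 in the wild type and -0.40, -0.78, -0.43 and -0.35 in Tnc-/-. Neither pair of groups overlapped, which restates the levels of Tek, Flt4 and Kdr already given; of all tested genes 35.1% did not overlap in level.

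**Figure D4:**
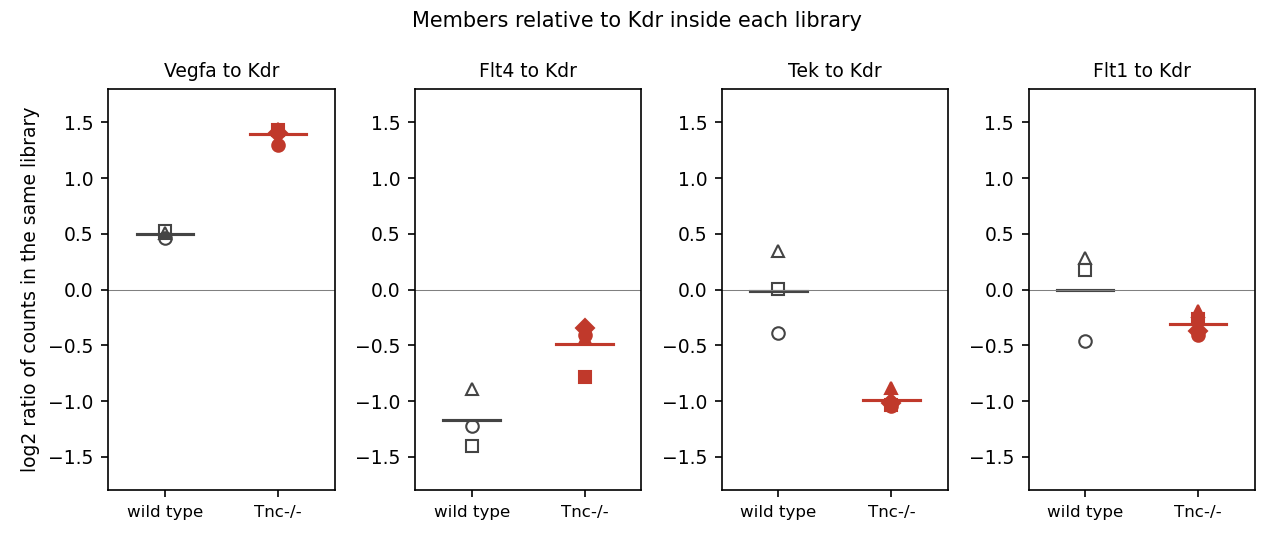
Log2 ratio of counts within each library for Vegfa, Flt4, Tek and Flt1 relative to Kdr, by genotype, each point being 1 library and each bar a group mean. Vegfa to Kdr lies at 0.47 to 0.53 in the wild type and 1.30 to 1.44 in Tnc-/-.

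Per kb of exon, the ligands Vegfb and Vegfa stood highest in both genotypes. In the wild type, Vegfb was at 31.7 CPM per kb and Vegfa at 21.6, with overlapping ranges, and both were clear of the rest. Tek (13.7 CPM per kb), Angpt1 (8.76), Vegfc (7.54) and Kdr (7.26) followed, each range overlapping its neighbour's, then Flt1 (4.86), Flt4 (3.52) and Pgf (2.57), each clear of the next. With the smell receptor density subtracted, the wild-type mean of Kdr (6.89 to 8.62 CPM per kb over its libraries) stood above those of Angpt1 (7.12) and Vegfc (5.83), with overlapping ranges. In Tnc-/-, Vegfb stood at 46.9 and Vegfa at 41.1 CPM per kb. Kdr (7.39), Tek (7.12), Vegfc (5.81) and Flt4 (5.77) came next with each range overlapping its neighbour's, and Angpt1 (4.44), Flt1 (4.01) and Pgf (3.12) were lowest. Per kb of exon, Tek was thus apart from Kdr in the wild type and overlapped it in Tnc-/-. That pattern depends on the exon lengths used, 4.71 kb for Tek and 9.03 kb for Kdr. In CPM, Tek (56.9 to 70.5) overlapped Kdr (55.5 to 74.8) in the wild type. In Tnc-/-, Tek (29.4 to 36.8 CPM) lay below Kdr (60.5 to 73.6 CPM).

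Profiles nearest to Kdr over the 7 libraries, by root mean square difference of centred log2 CPM among 14713 genes, were those of Pla2g7 (0.056), Cxcl14 (0.058) and Pex19 (0.059). For Vegfa they were Lix1l (0.084), Tle5 (0.089) and Jph2 (0.091). Lix1l was low, at 2.00 to 4.68 CPM, with 91.0% of its exon bases inside another gene's span, and did not pass (edgeR adjusted p = 0.118).

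Of 63 other genes of these pathways, 56 were tested and 15 passed, 9 higher and 6 lower in Tnc-/-. That is 26.8%, near the 29.0% of all tested genes, and the counts for each list stand beside 10.3% of all tested genes higher and 18.7% lower. With libraries scaled by their totals 15 also passed, 5 higher and 10 lower, 11 of them shared with the first 15 in the same direction. The 7 not tested (Angptl1, Angptl2, Hif1a, Adm, Esm1, Nrarp and Timp3) were listed at 0 and lie inside or almost wholly over another gene's span. With the smell receptor read density subtracted 11 passed, all among the 15 and in the same direction. Against wild-type library 1 alone 2 passed, of which 1, Notch1, was among the 15, and the number was 0 with the smell receptor covariate, where 10 had an unadjusted p under 0.05 in edgeR.

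Among 16 tested partners of the ligands and receptors, 2 were higher and 4 lower. Angptl4, a secreted relative of the angiopoietins, was higher at 66.3 to 96.0 CPM against 45.8 to 54.0 CPM (log2 fold change 0.79, SE 0.15, edgeR adjusted p = 0.00938). Ccbe1, which helps to activate VEGF-C, was lower (-0.94, SE 0.18, edgeR adjusted p = 0.00909), as was Sema3e, a guidance ligand (-1.61, SE 0.40, edgeR adjusted p = 0.0184). Ccbe1 and Sema3e span 257 and 231 kb, and against wild-type library 1 alone they stood at -0.55 and -0.54 without passing. Angptl4 did not pass there either, at 0.64 (edgeR adjusted p = 0.0914). With the read density subtracted, Sema3e (-1.27, edgeR adjusted p = 0.0397) and Angptl4 (0.62, 0.0201) passed and Ccbe1 did not (-0.54, 0.0878).

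Of 16 tested genes of oxygen sensing and hypoxia response, which can drive Vegfa, 2 were higher and 0 lower in edgeR. Both were hydroxylases that restrain the hypoxia-inducible factors: Hif1an (0.63, SE 0.15, edgeR adjusted p = 0.0163) and Egln2 (0.69, SE 0.17, edgeR adjusted p = 0.0204). Against wild-type library 1 alone neither passed in edgeR, Hif1an at 0.40 (adjusted p = 0.206) and Egln2 at 0.32 (adjusted p = 0.273). With the covariate they stood at 0.29 and 0.13. Both passed with the read density subtracted, at 0.47 and 0.52 (edgeR adjusted p = 0.0328 and 0.0316). The other 14 did not pass, and the median log2 fold change over all 16 was 0.026.

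Of 19 tested genes downstream of the receptors, 5 were higher and 1 lower. Notch1, the receptor that restrains sprouting, was at 22.7, 19.1 and 27.8 CPM in the wild type and 65.8, 46.1, 72.0 and 51.1 CPM in Tnc-/-. Its groups did not overlap (log2 fold change 1.34, SE 0.21, edgeR adjusted p = 0.0067). Against the unreplicated wild-type library 1 alone it was 1.37 (edgeR adjusted p = 0.0167), and with the smell receptor covariate 1.35 (edgeR adjusted p = 0.0805). Notch4 (0.94, SE 0.21, edgeR adjusted p = 0.0125) and the endothelial and blood-cell factor Fli1 (0.57, SE 0.15, edgeR adjusted p = 0.0228) were also higher. Against wild-type library 1 alone neither passed in edgeR, Notch4 at 0.65 (adjusted p = 0.0671) and Fli1 at 0.34 (adjusted p = 0.253). Both passed with the read density subtracted, at 0.87 and 0.71 (edgeR adjusted p = 0.0231 and 0.0369). Among 5 tested antagonists 1 passed, Sema3a, which spans 477 kb and was lower (-1.39, SE 0.32, edgeR adjusted p = 0.0147). It stood at -0.34 against wild-type library 1 alone and at 0.14 with the covariate, passing in neither, and passed with the read density subtracted (-0.83, edgeR adjusted p = 0.0336).

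Markers of the cells that carry these genes were read beside them. The summed level of 15 endothelial markers was 808 to 997 CPM in the wild type and 855 to 1042 CPM in Tnc-/-, with Vwf and Egfl7 higher, Emcn lower, 11 others not passing and Ecscr listed at 0. The call of Egfl7 held against wild-type library 1 alone. With the read density subtracted the calls of Vwf and Emcn held, and with the covariate none of the 3 passed in edgeR. The sum of 9 mural cell markers was 1995 to 2836 CPM against 2388 to 3293 CPM, of which Des, also a muscle gene, gave 1148 to 1887 CPM and 1632 to 2331 CPM. Of these 9 markers 2 passed, Notch3 (log2 fold change 0.70, edgeR adjusted p = 0.0163) and Mcam (0.49, 0.0452), both higher, and Notch3 also passed against wild-type library 1 alone and with the read density subtracted. Macrophage markers, from cells that can make Vegfa, summed to 1705 to 3293 CPM against 2677 to 3086 CPM, with 1 of 8 passing, Cd14, which was higher. Skeletal muscle markers summed to 19458 to 25175 CPM against 27303 to 40641 CPM, with 1 of 6 passing, Myh4, which was higher; without Myh4 the sums overlapped, at 15707 to 20662 CPM and 19346 to 30975 CPM. The genotypes did not overlap for 4 of the 6, Myh4, Myh1, Tnnt3 and Pvalb, all higher in Tnc-/-, beside 17.7% of all tested genes. Cspg4 of the mural, C1qa of the macrophage and Epb42 of the erythroid markers were also higher without overlap, and did not pass. Megakaryocyte and platelet markers summed to 227 to 484 CPM against 515 to 914 CPM, with 4 of 6 higher. Erythroid markers summed to 4345 to 8455 CPM against 12320 to 24480 CPM, with 3 of 5 tested higher and Alas2 listed at 0. The calls for macrophage, muscle, platelet and erythroid markers were all lost against wild-type library 1 alone and with the covariate. In these 2 fits the log2 fold changes were 0.47 and 0.46 for Cd14 and 0.95 and 0.85 for Myh4. They were 0.56 and 0.45 for Pf4, 0.80 and 0.47 for Itga2b, 0.97 and 0.59 for Gp9, and 0.40 and -0.011 for Gp1ba. For Hba-a1 they were 0.70 and 0.48, for Hbb-bs 1.19 and 1.02, and for Slc4a1 0.78 and 0.39. With the read density subtracted, Myh4, 3 of the 4 platelet calls and the 3 erythroid calls held, and Cd14 did not. The part of these cells in the levels of Vegfa, Flt4 and Tek was not tested.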

How the data were processed

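RNA was sequenced from whole shoulder joints of 7 mice, grouped by the genotype in the labels. Each deposited file holds whole-number counts of reads for every gene in 1 library, not normalized. Per the submitters' processing notes, the tools were FastQC 0.11.9, HISAT2 2.2.1, HTSeq 2.0.2 and DESeq2 1.38.3, with builds GRCm39 and mm39; the annotation, strand setting and treatment of overlapping genes are not given in the sources used here. Rows that name no gene, present in the Tnc-/- files, held 30.1% to 32.7% of their reads and were left out.

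The 56854 identifiers in all files went into edgeR 4.0.16 (R 4.3.3): filterByExpr, TMM scaling, robust quasi-likelihood F test with genotype as the term, Benjamini-Hochberg adjustment, threshold 0.05. CPM is counts over the TMM-scaled library size, and the SE is the absolute log2 fold change over the square root of F. Within-library log2 ratios used counts plus 0.5 and exact two-sided permutation tests over 35 splits. Spans, overlaps and exon lengths came from GENCODE M21 (GRCm38), which matched 91.4% of identifiers and may not be the authors' annotation. The tests were checked on simulated data.

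The members and the lists of pathway genes and cell markers were chosen with earlier results of these data known. Named were all members, from each pathway list up to 3 passing genes with the smallest p, and the 3 nearest profiles to Kdr and Vegfa; marker genes named beside the sums and untested genes were named after their values were seen. Alternatives were DESeq2 1.42.0, voom in limma 3.58.1, other scalings and filters, leaving out libraries, a replicate block and the smell receptor covariate; subtracting the smell receptor read density, marker sums without Reln or Myh4, and the ratios of Tek and Flt4 were added after seeing the data.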

Additional observations from a re-analysis of the deposited data

Results flagged for a closer look

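Each of 27 values was examined for a library lying far from the rest of its group of 4 Tnc-/- libraries, and 2 passed Dixon's critical value of 0.829, and chance flags about 1 in 20 groups. The log2 ratio of Tek to Kdr was -0.89 in Tnc-/- library 3, against -1.04, -1.03 and -1.02 in the other libraries. The summed erythroid marker level was 24480 CPM in Tnc-/- library 1, against 14088, 14396 and 12320 CPM in the others.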

How the results depend on the processing

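Numbers of genes tested and called differed by setting. edgeR called 5159 of 17791 genes; DESeq2 called 9423 of 29121, or 2016 with Bonferroni adjustment. The count was 973 of 17791 with voom, 3154 of 16372 with the smell receptor density subtracted, 399 of 17791 with the smell receptor level as a covariate and 825 of 18530 against wild-type library 1 alone. With 1 library left out it ran from 2229 of 18116 (without wild-type library 3) to 14113 of 21989 (without wild-type library 1). Other filters moved it to 7648 of 29121 with none and 3453 of 14223 with at least 10 counts in every library. Lower genes were 64.5% of calls, 82.7% with library totals, which moved the median of all genes to -0.24 (log2), 84.4% with Bonferroni, 51.1% with the covariate, 43.2% against wild-type library 1 alone and 27.3% with voom. The 4 members called fell to 2 with Bonferroni, 1 against wild-type library 1 alone and 0 with the covariate (2 at an unadjusted p under 0.05; DESeq2 without the covariate called 4); without 1 library they were 3 to 5. Pathway genes called were 15, and 1 with Bonferroni, 4 with voom, 11 with the read density subtracted, 2 against wild-type library 1 alone (1 of them among the 15), 0 with the covariate (10 at an unadjusted p under 0.05; DESeq2 without it 16), and from 4 without wild-type library 3 to 26 without wild-type library 1.

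Signs turned as follows, and the cause was not tested. With the covariate, Angpt1 was 0.26, Flt1 0.13 and Vegfc 0.074. Kdr was -0.0063 with DESeq2 under either adjustment, -0.052 with at least 10 counts in every library, -0.018 with the DESeq2 size factors, -0.21 with library totals, -0.10 with the density subtracted, -0.23 with the covariate, -0.17 against wild-type library 1 alone, -0.027 without Tnc-/- library 2 and -0.076 without wild-type library 3, within a range of -0.076 to 0.23 with 1 library left out. The Flt1 to Kdr log2 ratio was 0.15 without wild-type libraries 2 and 3.

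Vegfa, Flt4 and Tek passed in each of 7 fits that left out 1 library, at 0.83 to 1.10, 0.62 to 0.88 and -0.996 to -0.87; Angpt1 passed in 1, without wild-type library 1, at -1.17 to -0.63. With replicate number as a block, 1932 genes, 3 members and 3 pathway genes passed; same-numbered libraries correlated at 0.033, 0.061 and -0.021, and not every library correlated best with its own number, so the libraries share only a number. The Angpt2 to Angpt1 ratio could not be computed. Pgf, the tested member with the fewest counts, had at least 110 in every library; the 3 against 4 design limits permutation p to 0.0571.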

Other observations

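Tek and the targeted gene Tnc lie on the same chromosome, 4, with 30.7 Mb between them in GENCODE M21 (GRCm38). The other members called, Vegfa on chromosome 17, Flt4 on 11 and Angpt1 on 15, lie elsewhere.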
